A study of Mus musculus with 12 samples.

Results

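Enzymes of glutathione metabolism and detoxification were followed in the yolk sac of mouse embryos without functional *Prdm6* (del/del). The members were all array probes annotated to glutathione transferases (*Gst*), glutathione peroxidases (*Gpx*), the glutathione synthesis genes *Gclc*, *Gclm* and *Gss*, peroxiredoxins (*Prdx*), thioredoxins and their relatives (*Txn*), cytochromes P450 (*Cyp* followed by a digit), UDP-glucuronosyltransferases (*Ugt*), sulfotransferases (*Sult*), aldehyde dehydrogenases (*Aldh*), and *Cat*, *Sod1*, *Sod2* and *Hmox1*. They were 119 probes of 94 genes, out of 20794 probes of 9030 named genes, and 118 of these probes, for 93 genes, had a value on at least 8 of 12 arrays. The remaining probe, 1278 of *Txndc5*, a disulfide isomerase, had values on 7 arrays and was not tested. *Gsr* and *Nqo1* were sought as well, and no probe in the annotation used here carried either name.

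The RNA came from yolk sacs at embryonic day 10.5. The 6 homozygous yolk sacs lacked an exon of *Prdm6* that encodes part of its PR domain, in every cell, since the allele had been recombined in the germ line by a CMV-driven Cre deleter strain. The reference was 1 pool of RNA from 6 wild type (*Prdm6* +/+) yolk sacs. Each of the 12 cDNA microarrays carried del/del RNA in one dye and the pool in the other, with del/del in Cy5 on 5 arrays and in Cy3 on 5, while on replicates 8 and 9 the labels give one dye to both channels. By the legend of the study's heat plot each yolk sac was hybridized on 2 arrays of opposite dyes. The labels do not tie arrays to yolk sacs, so the main fit counts each array as a separate sample. Its limma p-values therefore tend to be too small. The values are log2 ratios of del/del over wild type, normalized by the authors. Their scale and direction are not stated and were taken from the signed mean ratios of that heat plot. Between 20011 and 20501 probes had a value on an array. The ratios hold no signal intensities, so that neither the abundance of an enzyme nor the presence of yolk sac markers could be checked, and fewer cells of a type and less RNA per cell cannot be told apart.

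Glutathione is a small thiol made in the cytosol by glutamate-cysteine ligase, whose catalytic and modifier subunits are encoded by *Gclc* and *Gclm*, followed by glutathione synthetase, encoded by *Gss*. Peroxidases and peroxiredoxins use glutathione or thioredoxin to reduce peroxides, and transferases join glutathione to reactive compounds. Cytochromes P450 oxidize steroids, fatty acids, retinoids and foreign compounds, and glucuronosyl- and sulfotransferases conjugate the products. In the yolk sac such functions are known from the visceral endoderm, the epithelium that absorbs and processes nutrients for the embryo, and peroxide-removing enzymes are abundant in red blood cells.

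*Gss* rose and *Ugt1a6a*, a glucuronosyltransferase that conjugates small phenols, fell in the del/del yolk sacs, and the other 116 member probes did not pass the threshold of a Benjamini-Hochberg adjusted p under 0.05 in limma with a change over 1.3-fold. Among all 20516 probes tested, 1.07% passed, 0.166% as higher and 0.907% as lower. The members reached 1 of 118 in either direction, or 0.847% each, so their share of lower probes was close to the background, and the share of higher probes rests on the single probe of *Gss*. At an unadjusted p under 0.05, 5 member probes were higher and 13 lower, that is 4.24% and 11%, against 4.64% and 6.41% of all probes. With a change over 1.3-fold added to that p, 2 were higher and 3 lower, where the background was 0.751% and 1.95%. A mean ratio over 1.3-fold, with no test, was found in 11 member probes (9.32%) and in 7.07% of all probes. The median log2 ratio of the 118 probes was -0.038, with quartiles of -0.136 and 0.048, against -0.004 over all probes, and 62.7% of the member probes and 51.1% of all probes lay below 0.

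The sequences before the transcription starts of *Gss*, *Ugt1a6a* and *Gsta2* are shown because these were the members with an adjusted p under 0.05. They are the 250 bases upstream of the annotated start (RefSeq, GRCm38.p6), with the letters GCGTG, the core that the Ah receptor and its partner bind, in capitals where they occur on either strand. The *Gss* window is chr2:155592811-155593060 on the minus strand, that of *Ugt1a6a* chr1:88134559-88134808 on the plus strand and that of *Gsta2* chr9:78347146-78347395 on the minus strand.
Gss: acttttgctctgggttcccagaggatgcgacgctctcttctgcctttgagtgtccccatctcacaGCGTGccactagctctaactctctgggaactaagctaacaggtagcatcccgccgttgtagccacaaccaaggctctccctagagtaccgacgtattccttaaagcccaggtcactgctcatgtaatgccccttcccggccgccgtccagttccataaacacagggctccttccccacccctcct
Ugt1a6a: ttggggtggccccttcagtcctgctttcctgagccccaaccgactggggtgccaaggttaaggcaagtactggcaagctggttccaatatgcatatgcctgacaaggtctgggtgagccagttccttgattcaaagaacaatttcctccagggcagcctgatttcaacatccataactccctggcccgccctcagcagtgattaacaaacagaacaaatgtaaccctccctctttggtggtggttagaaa
Gsta2: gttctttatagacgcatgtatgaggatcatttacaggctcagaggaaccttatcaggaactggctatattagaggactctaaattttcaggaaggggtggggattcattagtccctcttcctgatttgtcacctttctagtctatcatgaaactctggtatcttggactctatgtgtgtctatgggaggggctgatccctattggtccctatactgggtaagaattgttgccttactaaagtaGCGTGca
The core of the antioxidant response element, TGACNNNGC, bound by Nrf2 with a small Maf protein, was in none of these 3 windows on either strand. Promoters were given for 76 of the 93 genes. Of their 94 promoter windows, 11.7% held TGACNNNGC, against 10.2% of all 32851 windows, and 35.1% held GCGTG, against 28.2%. The matches to TGACNNNGC fell in 11 genes, among them *Gclm*, *Gsta3*, *Prdx1*, *Sod1* and *Txnrd1*. None of these 11 genes passed the threshold. Only 1.69% of the member probes and 1.07% of all probes passed it, so this is not read as a result about the 11 genes. A match to letters does not show binding, and its absence holds for this window only.

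*Gss*, measured by 1 probe, lay above 0 on each of the 12 arrays. Its log2 ratio was 0.043 at the lowest, 0.443 at the median and 1.258 at the highest array, with a mean of 0.52 (SD 0.35, n = 12 arrays, adjusted p = 0.00115 from limma), a 1.44-fold rise. The size depended on the dye. On the 5 arrays with del/del in Cy5 the values lay between 0.043 and 0.35 (mean 0.24, SD 0.12), and on the 5 with del/del in Cy3 between 0.587 and 1.258 (mean 0.86, SD 0.27), so the 2 sets of arrays did not overlap. The dye term of the fit was -0.31 (adjusted p = 0.0257 from limma), and a dye effect passed in 10 of the 118 member probes and in 12.2% of all probes. Replicates 8 and 9 had 0.536 and 0.25. Flipping signs within 1 orientation gave p = 0.0625 in both (exact permutation test, two-sided), the smallest p that 5 arrays allow, so that this test cannot pass 0.05. Among the 34 probes that rose, *Gss* stood at position 18 by the size of its log2 ratio. The study's own list of changed genes, at the same thresholds, does not hold *Gss*. Only *Sfrp1* and *Mtap1b* were higher in that list.

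The enzyme ahead of glutathione synthetase in the pathway did not pass. *Gclc* was measured by probes 5103 and 3306, with mean log2 ratios of 0.19 and 0.10 (SD 0.47 and 0.34, adjusted p = 0.654 and 0.759 from limma), and *Gclm* by probe 19229, with 0.08 (SD 0.28, adjusted p = 0.767 from limma). The arrays of these 3 probes spread on both sides of 0, with *Gclm* above 0 on 7 of 12. The 95% interval of *Gclm* ran from -0.10 to 0.26 and that of *Gclc* probe 3306 from -0.11 to 0.30, which leaves out a change over 1.3-fold, or 0.38 on the log2 scale, while that of probe 5103, from -0.10 to 0.48, does not. These intervals treat the arrays as independent and therefore tend to be too narrow. The difference between *Gss* and *Gclc* or *Gclm* was not tested.

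*Ugt1a6a*, also measured by 1 probe, lay below 0 on all 12 arrays, with log2 ratios of -0.794 at the lowest, -0.594 at the median and -0.281 at the highest array. The mean was -0.56 (SD 0.16 over 12 arrays, adjusted p = 0.000143 from limma), a 1.48-fold decrease. It was -0.48 (SD 0.12) with del/del in Cy5 and -0.69 (SD 0.10) with del/del in Cy3, each with p = 0.0625 when signs were flipped (exact permutation test), the smallest possible. The values of the 2 orientations overlapped, and the dye term was 0.10 (adjusted p = 0.242 from limma). The probe ranked at place 25 of all 20516 by p, and at 127 of the 186 lower probes by size. *Ugt1a6a* is in the study's own list of genes changed on these arrays, as *Ugt1a6*. That entry and the one of *Sfrp1* were used to check the direction of the ratios. Neither the call of *Ugt1a6a* nor its direction is therefore independent of that list. Genes of the *Ugt1a* locus share their last exons, and a cDNA probe may not tell them apart. No other *Ugt1a* probe was annotated. Neither *Gss* nor *Ugt1a6a* passed in limma with its robust and trend options both on (adjusted p = 0.39 each), a setting in which 0 of all 20516 probes passed, or in 1 orientation alone (adjusted p = 0.247 and 0.0599 for *Gss*, 0.112 and 0.0501 for *Ugt1a6a*, in Cy5 and Cy3), where 1 probe of all passed in Cy5 and 3 higher and 41 lower passed in Cy3. The ratios of the 5 Cy3 arrays were also turned in sign, together with replicate 8, whose labels name Cy3 for both channels. *Gss* then had a log2 ratio of -0.28 and *Ugt1a6a* 0.12. As deposited, the erythroid marker list described below had a median under 0 on every array, in both orientations (-2.168 to -0.497). The other glucuronosyltransferase, *Ugt2b38* (probe 1037), averaged -0.33 on the log2 scale (SD 0.39, adjusted p = 0.275 from limma) and was lower on 8 of 12 arrays, with values from -0.945 to 0.159, and did not pass.

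**Figure D1:**
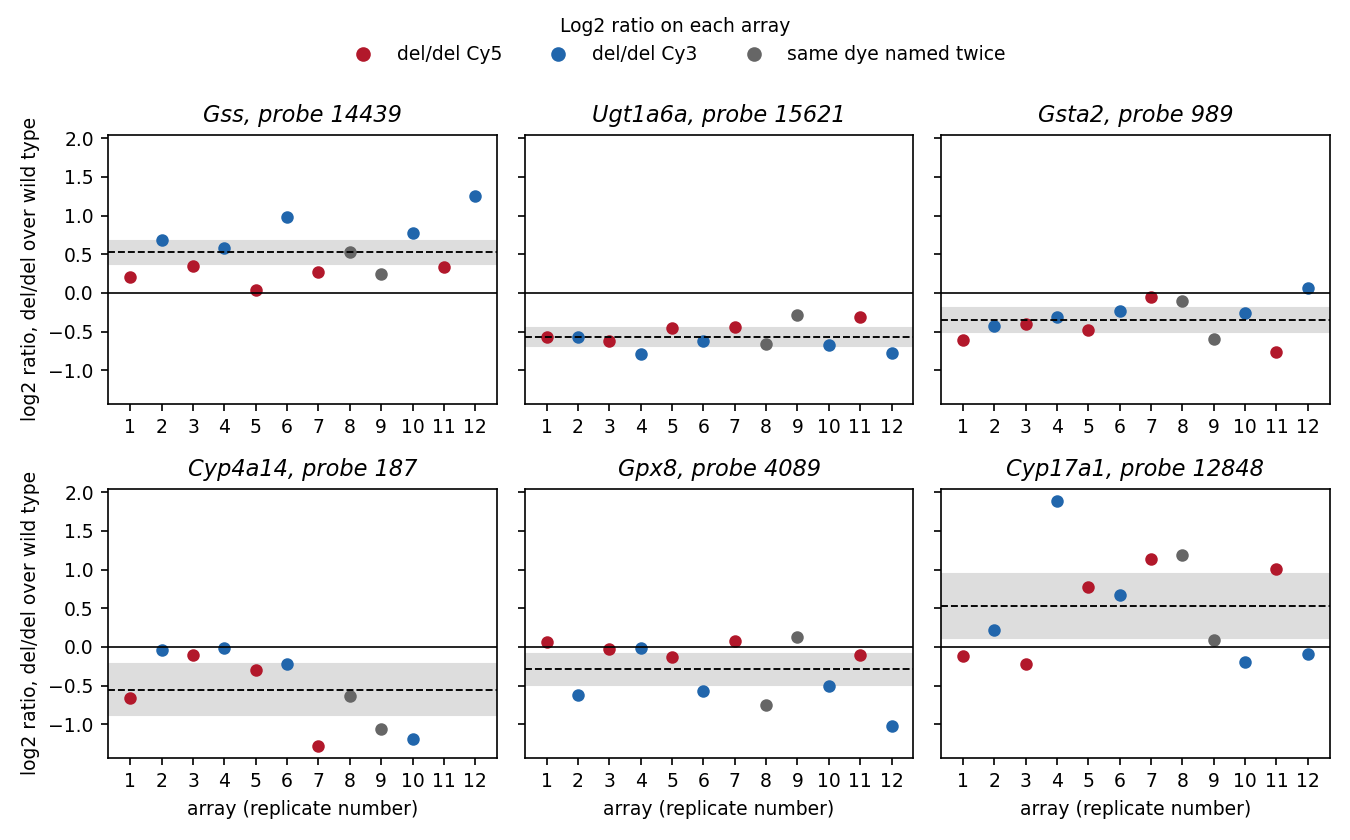
Log2 ratio of del/del over wild type pool (vertical axis) on each of the 12 arrays (horizontal axis, replicate number) for 6 member probes, coloured by the dye of the del/del channel; the dashed line is the mean and the grey band its 95% interval from limma. *Gss* lies above 0 and *Ugt1a6a* below 0 on all 12 arrays, and the *Gss* arrays with del/del in Cy3 (0.587 to 1.258) lie above those with del/del in Cy5 (0.043 to 0.35).

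Marker genes of several cell types were read on the same arrays, where 0.907% of all probes tested were lower and 0.166% higher. By probe, 12 of 15 erythroid, 1 of 24 visceral endoderm and 2 of 14 mesoderm and vessel wall probes were lower. In the list of heart and embryo proper 3 of 7 probes were higher. A gene is counted below if any of its probes passed. Of the 9 measured genes of an erythroid marker list, 8 fell, with a median log2 ratio of -1.22 over 15 probes (-1.48 to -0.32), and the list's median on an array lay between -2.168 and -0.497. Of 17 measured genes of visceral endoderm, 1 fell, *Alb*, which encodes albumin, by 1.33 on the log2 scale, and the median over 24 probes was 0.021, with array medians from -0.131 to 0.147. In the mesoderm and vessel wall list the collagen genes *Col3a1* and *Col1a1* (by 1 of its 2 probes) fell, 2 of 10 genes, with array medians from -0.320 to 0.196. The contractile genes *Tnnt2*, *Myl7* and *Myl4* rose, 3 of 6 genes of the heart and embryo proper, with array medians from -0.090 to 0.814. For decidua and trophoblast 1 gene was measured, *Des*, which encodes desmin, and it did not pass (log2 ratio -0.03). The residuals of *Gss* from the fit were set against those of the mean of 7 alpha-like globin probes over the 12 arrays. Pearson's r was -0.43 (permutation p = 0.161) and Spearman's rho -0.52 (permutation p = 0.0897). For *Ugt1a6a* the values were 0.12 for r (permutation p = 0.707) and -0.07 for rho (permutation p = 0.836). Adjusted over these 2 relations, p was 0.322 for r and 0.179 for rho of *Gss*, and 0.707 and 0.836 for *Ugt1a6a*. With replicates 7 and 8 left out, whose globin residuals were the most extreme, r was -0.61 for *Gss* and -0.02 for *Ugt1a6a*. The arrays are not independent, so these permutation p-values tend to be too small as well. The part of these cell types in the changes of *Gss* and *Ugt1a6a* was not tested.

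Of 22 probes of 17 glutathione transferase genes, 0 passed in limma, where 1.07% of all probes passed. At an unadjusted p under 0.05, 1 was higher and 2 lower, against 4.64% and 6.41% of all probes. The median log2 ratio was -0.06 (-0.35 to 0.27). *Gsta2*, an alpha-class transferase of epithelial detoxification, came closest. Its log2 ratio was -0.758 at the lowest, -0.357 at the median and 0.061 at the highest array, lower on 11 of 12, with a mean of -0.35 (SD 0.25, n = 12). Its adjusted p of 0.0372 from limma was under 0.05, but the change of 1.27-fold lies just under the fold threshold; 1.06% of all probes had such an adjusted p with a lower ratio. Without each array in turn the adjusted p from limma ran from 0.0176 to 0.0965 and was under 0.05 only without replicate 7, 8 or 12. It was 0.062 without the dye term, 0.1 without replicates 8 and 9 and 0.142 with presumed pairs averaged. Alpha-class genes are alike in sequence, and the probe may also read its close relatives. The other alpha-class genes *Gsta3* and *Gsta4* had -0.30 by 1 probe and 0.13 and -0.05 by 2, and did not pass. Within the theta class, *Gstt1* had a mean of 0.27 (above 0 on 10 arrays, unadjusted p = 0.0344 and adjusted p = 0.396 from limma), and *Gstt3* -0.23 (below 0 on 10 arrays, unadjusted p = 0.0145 and adjusted p = 0.284 from limma), so that these neighbours on chromosome 10 lay on opposite sides of 0 without either passing. *Gstt2* and *Gstt4*, on the same chromosome, had -0.04 and -0.16. The mu-class genes *Gstm1*, *Gstm2*, *Gstm3* and *Gstm5* lay between -0.15 and 0.13, and the pi-class gene *Gstp1* had 0.14.

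Of 8 glutathione peroxidase probes of 7 genes, 0 passed in limma, against 1.07% of all probes. A ratio below 0 was found in 7 of them, against 51.1% of all probes, and 4 were lower and 0 higher at an unadjusted p under 0.05, against 6.41% and 4.64% of all probes (median -0.15). Both probes of *Gpx8*, a peroxidase of the endoplasmic reticulum, gave nearly the same value, -0.29 (SD 0.38) and, by probe 20409, -0.28 (SD 0.31), each lower on 9 of 12 arrays with an adjusted p of 0.195 from limma. Their values correlated over the 12 arrays with r of 0.73, both being probes of one gene on the same arrays. Other genes with more than 1 probe had r as low as -0.84, for *Gstz1*. The arrays of the first probe reached from -1.027 to 0.128. *Gpx1*, the cytosolic peroxidase that is abundant in red cells, was below 0 on all 12 arrays, from -0.708 to -0.003, with a mean of -0.22 (SD 0.20, n = 12, adjusted p = 0.204 from limma). *Gpx7*, the near relative of *Gpx8*, had -0.18, and *Gpx4*, which reduces lipid peroxides, had 0.04 (SD 0.26, adjusted p = 0.874 from limma). A sign that was the same on every array, as in *Gpx1*, was found in 4 of the 118 member probes, *Gss*, *Ugt1a6a*, *Gpx1* and *Cyp4a14*, and in 0.95% of all probes.

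Peroxiredoxins reduce peroxides with electrons from thioredoxin. *Prdx4*, the secreted form, had a log2 ratio of -0.20 (SD 0.46, n = 12, adjusted p = 0.504 from limma). *Prdx1* had -0.15 (SD 0.66, adjusted p = 0.583 from limma). *Prdx2*, among the most abundant proteins of red cells, had -0.05 (SD 0.28, 95% interval -0.24 to 0.14, adjusted p = 0.875 from limma). The spread of *Prdx1* went with the dye, with a dye term of 0.61 (adjusted p = 0.0171 from limma). In the thioredoxin family, 23 probes of 14 genes had a median of 0.03, and 0 passed in limma, against 1.07% of all probes. At an unadjusted p under 0.05, 2 were higher and 1 lower, against 4.64% and 6.41% of all probes. The mitochondrial thioredoxin *Txn2* had 0.20 by probe 7843 (above 0 on 11 arrays, SD 0.19, adjusted p = 0.211 from limma) and 0.04 by probe 11839. *Txnl1*, a thioredoxin-like protein bound to the proteasome, had -0.19 (below 0 on 10 arrays, SD 0.20, adjusted p = 0.301 from limma). For *Txnrd1*, the cytosolic thioredoxin reductase, probe 4556 had 0.17 and probe 9485 had -0.17, so the probes disagreed in sign.

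Enzymes that remove superoxide and peroxide or break down heme did not pass, in any of 6 probes, where 1.07% of all probes passed. *Cat*, catalase, had a log2 ratio between -0.357 and 0.662 with a median of 0.052, and a mean of 0.04 (SD 0.28, n = 12, 95% interval -0.15 to 0.22, adjusted p = 0.909 from limma). *Hmox1*, heme oxygenase 1, lay between -0.400 and 0.968 with a median of -0.028, and its mean was 0.03 (SD 0.36, 95% interval -0.19 to 0.25, adjusted p = 0.933 from limma). For both genes the arrays lay on either side of 0. The cytosolic superoxide dismutase *Sod1* had -0.03 by probe 576 (SD 0.12, 95% interval -0.14 to 0.08, adjusted p = 0.879 from limma). Its probe 7909 had -0.13 (SD 0.18, adjusted p = 0.489 from limma). The mitochondrial *Sod2* had 0.05 by probe 6313 (SD 0.30, adjusted p = 0.869 from limma) and -0.38 by probe 15140, which had values on 10 arrays and an SD of 1.21 (adjusted p = 0.7 from limma). For *Cat*, *Hmox1*, *Sod1* by both probes and *Sod2* by probe 6313 a change over 1.3-fold lay outside the interval. That was so for 73 of the 118 member probes, or 61.9%, and for 61.4% of all probes. As above, these intervals treat the arrays as independent and tend to be too narrow.

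**Figure D2:**
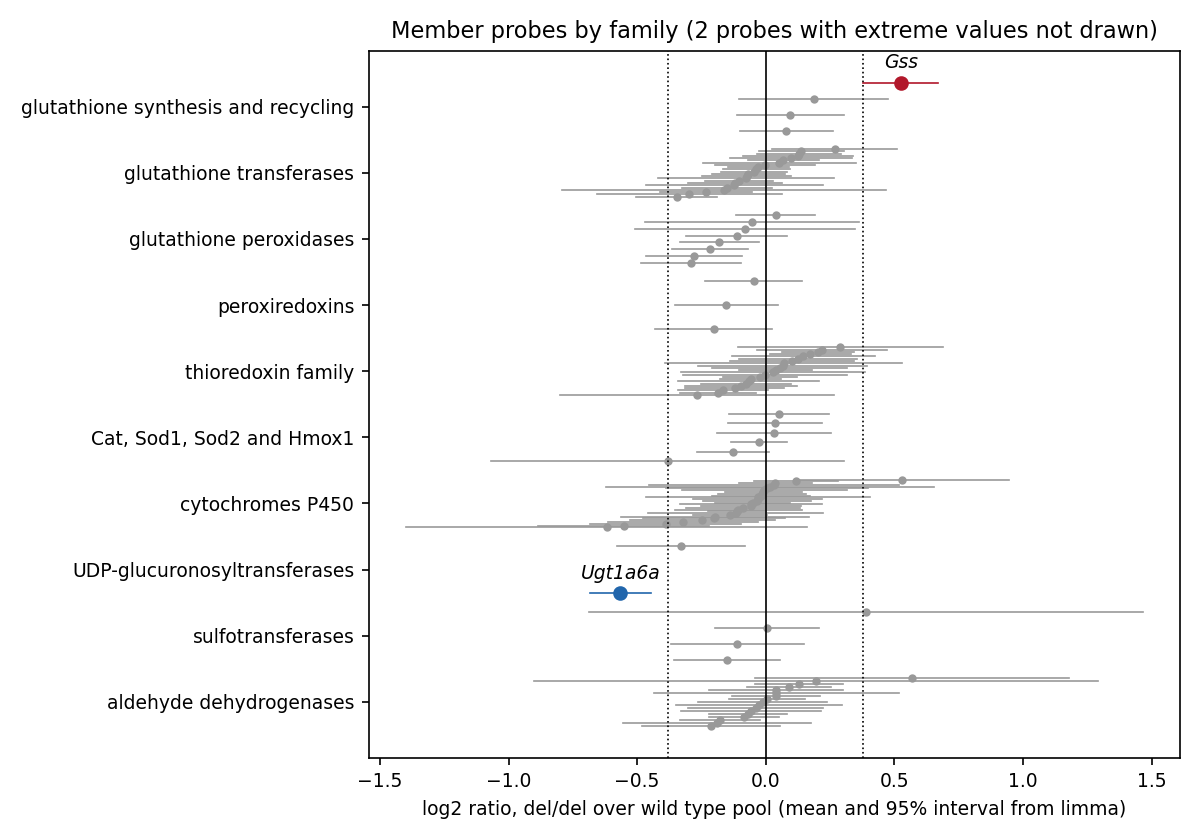
Mean log2 ratio of del/del over wild type pool (horizontal axis, points) with its 95% interval from limma (lines) for 116 member probes by family (vertical axis). The dotted lines mark 1.3-fold, and the probes past the threshold are coloured, *Gss* at 0.52 and *Ugt1a6a* at -0.56.

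Among 29 probes of 27 cytochrome P450 genes, 22 had a ratio below 0 (51.1% of all probes did), and the median was -0.05. In limma 0 passed, against 1.07% of all probes. At an unadjusted p under 0.05, 1 was higher and 3 lower, against 4.64% and 6.41% of all probes. *Cyp4a14*, a fatty acid hydroxylase, had values on 10 arrays, all below 0, from -1.276 to -0.011 with a median of -0.471 and a mean of -0.55 (SD 0.49, adjusted p = 0.149 from limma). *Cyp7b1*, an oxysterol hydroxylase, averaged -0.39 (SD 0.50, adjusted p = 0.271 from limma) and was lower on 9 of 12 arrays, with values from -1.335 to 0.332. *Cyp17a1*, the hydroxylase and lyase of androgen synthesis, averaged 0.53 (SD 0.68, adjusted p = 0.301 from limma) and was higher on 8 of 12 arrays. Its values ran from -0.220 to 1.888 with a median of 0.446, and the replicates 4, 5, 6, 7, 8 and 11 were the high ones. *Cyp3a11*, a xenobiotic oxidase, had -0.32 (lower on 9 of 12, unadjusted p = 0.0335 and adjusted p = 0.392 from limma). *Cyp26b1*, which degrades retinoic acid, had -0.25 (adjusted p = 0.526 from limma). The 6 probes of the *Cyp2d* genes *Cyp2d9*, *Cyp2d10*, *Cyp2d12*, *Cyp2d22* and *Cyp2d26* lay between -0.11 and 0.03.

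The sulfotransferases and aldehyde dehydrogenases did not pass, where 1.07% of all probes passed. Of the 4 sulfotransferase probes, *Sult1a1*, which acts on phenols, had -0.15 and was lower on 10 of 12 arrays (SD 0.37, adjusted p = 0.603 from limma), *Sult2b1*, which acts on sterols, had 0.39 with an SD of 1.81 (adjusted p = 0.812 from limma), and *Sult4a1*, a brain form, had -0.11 by probe 7817 (adjusted p = 0.77 from limma) and 0.01 by probe 17214, all as log2 ratios. Of 17 probes of 13 aldehyde dehydrogenase genes, 0 passed in limma, against 1.07% of all probes. At an unadjusted p under 0.05, 1 was lower and 0 higher, against 6.41% and 4.64% of all probes. The lower one was *Aldh16a1* by probe 1862, with -0.18 (SD 0.33, adjusted p = 0.365 from limma), while its probe 13221 had 0.09. *Aldh2*, the mitochondrial enzyme that oxidizes acetaldehyde, had 0.57 by probe 7296 (above 0 on 6 of 11 arrays, SD 1.29, adjusted p = 0.485 from limma) and -0.21 by probe 19083 (SD 0.43, adjusted p = 0.569 from limma). *Aldh1a1*, a retinaldehyde dehydrogenase, had 0.04 and 0.20 by 2 probes with SDs of 0.74 and 1.73.

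Probes of one gene were compared with each other. No member gene with more than 1 probe passed the threshold, so the comparison cannot show how far a passing ratio can be read. Of 21 member genes with more than 1 probe, 12 had the same sign on all of theirs and 9 had both signs. The gap between the highest and the lowest probe had a median of 0.12 on the log2 scale and ranged from 0.01 for *Gpx8* to 0.78 for *Aldh2*. The lowest r between probes of a gene over the arrays ran from -0.84 for *Gstz1* to 0.76 for *Gclc*. *Gss*, *Ugt1a6a* and *Gsta2* were measured by 1 probe each, so this check was not open to them.

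**Figure D3:**
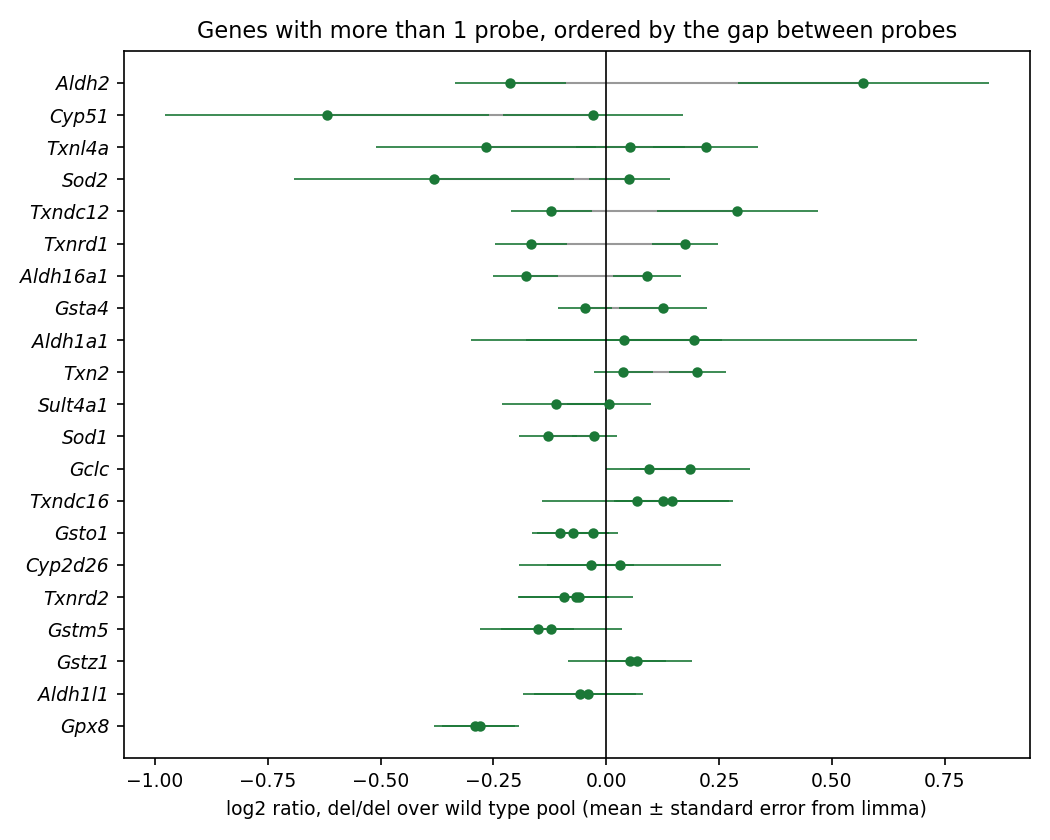
Mean log2 ratio of del/del over wild type pool (horizontal axis) with its standard error from limma for each probe of the 21 member genes measured by more than 1 probe (vertical axis), ordered by the gap between probes. *Gpx8* has its 2 probes at -0.29 and -0.28, and *Aldh2* has -0.21 and 0.57.

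Genes related to the same metabolism but outside the members were measured by 84 probes of 62 genes, out of 103 listed. Those measured include *Keap1*, the small Maf genes *Mafg* and *Mafk*, *Arnt*, the partner of the Ah receptor, the transporter *Abcc1*, pentose phosphate enzymes, glutaredoxins and further detoxifying enzymes, while the probe of *Nfe2l2*, which encodes Nrf2, had values on fewer than 8 arrays and was not tested, and no probe in the annotation used here was named *Ahr*, for the Ah receptor. In limma 0 of the 84 probes passed, against 1.07% of all probes, and their median log2 ratio was 0.01. At an unadjusted p under 0.05, 5 were higher and 4 lower, against 4.64% and 6.41% of all probes. *Ccs*, the copper chaperone of *Sod1*, had 0.26 (above 0 on 10 arrays, SD 0.19, adjusted p = 0.0485 from limma), which is under 1.3-fold. *Keap1*, the repressor of Nrf2, had 0.30 (SD 0.53, adjusted p = 0.372 from limma), *Mafg*, a small Maf partner of Nrf2, had -0.22 by probe 5257 (SD 0.17, adjusted p = 0.135 from limma) and -0.07 and -0.04 by its other probes, and *Srxn1*, which restores oxidized peroxiredoxins, had 0.20 (SD 0.28, adjusted p = 0.351 from limma). *Fth1*, the ferritin heavy chain, had -0.31 by probe 19028 (SD 0.45, adjusted p = 0.15 from limma) and -0.14 and -0.10 by its other probes, and *Ugp2*, whose product feeds the glucuronosyltransferases, had -0.39 (SD 0.57, adjusted p = 0.223 from limma).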

How the data were processed

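Gene expression was measured on 12 cDNA microarrays with 2 channels. The deposited values are normalized log2 ratios, 1 for each probe on each array. How the authors scanned, corrected and normalized the arrays is not given in the sources used here. The sample labels describe labelling of total RNA by reverse transcription, and the paper's methods describe an amplification of the RNA first. The values were used as deposited. Array medians ranged from -0.057 to 0.045. Ratios correlated over all probes with a median r of 0.124 (0.084 to 0.275) between arrays of the same orientation and -0.115 (-0.193 to 0.016) between opposite ones, and no intensities or depths were used here. The number of arrays limits the precision. Symbols came from the array's annotation and all 12771 were matched by gene ID to RefSeq of GRCm38.p6; 8023 probes had none.

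The mean ratio of all 20516 probes measured on 8 arrays or more was tested in R 4.3.3 with limma 3.58.1 (lmFit, eBayes) against 0 with a dye term (0 on replicates 8 and 9), and p-values were adjusted over all of them. The thresholds are those of the paper's methods. The wild type pool is 1 control sample, so the spread between wild type yolk sacs is left out. The fit was also run on simulated data with independent arrays. That run cannot show the effect of 2 arrays from 1 yolk sac, and no result is drawn from it. Named probes are those past the threshold, those with an unadjusted p under 0.05 and over 1.3-fold, all probes of such genes, of glutathione synthesis, of *Cat*, *Sod1*, *Sod2* and *Hmox1* and of the *Ugt1a* genes, the 2 of smallest p in each family, and marker genes that passed; other names were chosen after the values were seen. The members and lists were chosen with earlier results of these data known. Alternatives concerned the dye term and dye labels, the arrays used, centring and scaling, extreme values, the minimum of arrays, limma's options, the fold threshold, presumed pairs, the direction of the ratios, probes of a gene averaged and a longer response element. Figures were drawn with matplotlib 3.10.9 in Python 3.11.15.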

Additional observations from a re-analysis of the deposited data

How the results depend on the processing

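Of 118 member probes, 1 was higher and 1 lower. These counts were 0 and 0 in limma on the 5 arrays with del/del in Cy5 alone (6 and 9 at an unadjusted p under 0.05 and over 1.3-fold), on the 5 in Cy3 alone (3 and 12), with the robust and trend options both on (2 and 3), and at 1.5-fold (0 and 0). Among all probes these settings called 1 and 0, 3 and 41, 0 and 0, and 13 and 119. Without a fold threshold 2 probes were lower, *Gsta2* being added. Without each array in turn, the higher count stayed at 1 and the lower lay between 1 and 2, with 2 without replicate 7 (*Gsta2* added, -0.39, adjusted p = 0.0176 from limma, which rose to 0.0965 without replicate 10), while the median of the members lay between -0.056 and -0.034; it was -0.081 when Cy5 arrays of del/del were used alone. Without 1 array *Gss* lay between 0.48 and 0.55 (adjusted p between 0.00167 and 0.00488 from limma) and *Ugt1a6a* between -0.59 and -0.55. With arrays of consecutive number averaged as presumed dye-flip pairs of 1 yolk sac, *Gss* and *Ugt1a6a* still passed (adjusted p = 0.0354 and 0.0182 from limma). With the 5 Cy3 arrays and replicate 8, labelled Cy3 in both channels, turned in sign, 8 member probes were higher and 1 lower. Among all probes 1127 were then higher and 618 lower, against 34 and 186 as reported. The log2 ratio was -0.28 for *Gss* (adjusted p = 0.0249 from limma), 0.12 for *Ugt1a6a*, -0.08 for *Cyp17a1* and 1.67 for *Txn1*. The *Txn1* value includes the turned value of replicate 8, which was -16.664 as deposited. As deposited, the median of the erythroid marker list lay below 0 on all 12 arrays, in both orientations. *Cyp2j9* changed to -0.29 and *Txn1* to 0.06 with extreme values as missing, and to the same values without replicate 3 and replicate 8, the arrays that hold them (range without each array -0.29 to 1.56 and -1.89 to 0.06); over the Cy3 arrays alone *Cyp2j9* had -0.07. With a core that is longer by one A at its end, 4 member promoters in place of 11 had a match. The cause was not tested in any of these. Single ratios had a median 95% interval of 0.215 on either side on the log2 scale, which limits what 12 arrays can show.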

Other observations

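The largest mean ratios among the members came from 1 array each. *Cyp2j9*, which acts on arachidonic acid, had a mean log2 ratio of 1.16 from probe 2430 with a median of -0.128, and replicate 3 held 16.917 while the other 11 arrays lay between -1.175 and 0.412. *Txn1*, cytosolic thioredoxin, had a mean of -1.48 from probe 15919 with a median of 0.172, and replicate 8 held -16.664 while the other 10 arrays lay between -4.547 and 2.124. Neither passed (adjusted p = 0.783 and 0.767 from limma).

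*Cyp51*, the lanosterol demethylase of cholesterol synthesis, had a mean of -0.62 (SD 1.3, adjusted p = 0.568 from limma) by probe 18516, which was chosen after its values were seen. Its values were -1.607, -0.911, -2.355 and -1.668 on replicates 1 to 4, and -1.842 and -2.178 on replicates 9 and 10. They were 0.701, 0.582, 1.092 and 1.152 on replicates 6, 7, 11 and 12, and -0.152 and -0.239 on replicates 5 and 8. The arrays of this probe lay on both sides of 0 in either orientation, with a dye term of 0.05 (adjusted p = 0.948 from limma), and the mean by probe 9529 was -0.03 (SD 0.73).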
